A study of Mus musculus with 7 samples.

Results

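Genes whose products the liver secretes into plasma, with a few liver enzymes, were read out in thymic epithelial cells, where they stand for antigens of a distant organ. The list held 32 genes, written down by name, among them albumin, apolipoproteins, fibrinogen chains and coagulation factors. Of these, 30 had a probe set with that gene symbol alone, out of 19937 genes so named on the array, and the probe set with the highest mean stood for each gene. Serpina3k and Gc had no such probe set and were not analysed here. The measured members split into 8 whose mean over the 7 arrays lay above the median of all probe sets (6.51 on the log2 scale) and 22 whose mean did not. Over all 19937 genes 11550 lay above that median, which also counts probe sets with no gene symbol. Nearest to that line were F2 at 6.56 and Itih4 at 6.58 on the upper side, and Itih3 at 6.48 and Apoc3 at 6.44 on the lower side.

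All samples were medullary epithelial cells (MECs) with high MHC class II, sorted from NOD thymus, the thymus of a strain prone to autoimmune diabetes. There were 4 samples of the reconRAG1KO group, from NOD mice null for RAG1, the recombinase of antigen receptor genes, and 3 of the reconSCID group, from NOD mice carrying the SCID mutation in DNA-PK, a kinase of DNA break repair. Recipients of both groups were irradiated as pups of 2 to 4 days with 200 rad, given bone marrow 6 h later and analysed 6 to 8 weeks after the transfer, so the controls share irradiation, a marrow transfer and a lymphocyte defect with the SCID mice. Both defects are in every cell of the recipient, the donor of the marrow is not named in the sources used here, and neither is the number of thymi behind a sample. Levels are log2 of deposited microarray intensities, and differences are reconSCID minus reconRAG1KO.

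Hepatocytes make most of the protein of blood plasma, and their genes are driven by a network of liver transcription factors such as HNF1, HNF4 and C/EBP. Medullary epithelial cells transcribe many such tissue-restricted genes, each in a minority of cells, so that developing T cells meet the antigens in the thymus. The nuclear protein Aire is needed for a large share of them, and a subset of medullary cells that uses HNF4 factors and resembles gut and liver cells has been described.

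The bases before the start site are given for 6 members as a description of sequence, with no probe, binding or use in the liver measured there. Alb, Fga and Fgb are shown as hepatocyte promoters with an HNF1 core near the start, and Fetub, F2 and Itih4 because their group differences had an interval that excluded 0 once array sets, described below, entered the model. Each line is the 250 bases upstream of a RefSeq start site in assembly GRCm38.p6, 5′ to 3′ on the strand of the gene. Capitals mark the HNF1 core GTTAAT and the C/EBP core TTGCNNAA, each on either strand, and the TATA box TATAAA on the strand of the gene.
Alb, chr5:90460620-90460869, plus strand: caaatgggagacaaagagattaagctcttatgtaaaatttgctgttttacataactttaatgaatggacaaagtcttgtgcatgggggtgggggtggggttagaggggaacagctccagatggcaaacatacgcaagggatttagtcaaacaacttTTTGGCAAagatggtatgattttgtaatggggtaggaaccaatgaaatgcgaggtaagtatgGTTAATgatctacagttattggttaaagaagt
Fga, chr3:83025903-83026152, plus strand: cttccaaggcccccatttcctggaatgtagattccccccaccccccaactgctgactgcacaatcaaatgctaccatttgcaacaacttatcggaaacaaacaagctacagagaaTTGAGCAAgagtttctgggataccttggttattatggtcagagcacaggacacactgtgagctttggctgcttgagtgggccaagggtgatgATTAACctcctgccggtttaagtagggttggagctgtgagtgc
Fgb, chr3:83049864-83050113, minus strand: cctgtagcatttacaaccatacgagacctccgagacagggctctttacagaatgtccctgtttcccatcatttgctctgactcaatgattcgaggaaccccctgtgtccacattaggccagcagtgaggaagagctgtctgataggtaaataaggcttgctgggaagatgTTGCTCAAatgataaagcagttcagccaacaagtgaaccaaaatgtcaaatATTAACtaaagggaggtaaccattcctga
Fetub, chr16:22918132-22918381, plus strand: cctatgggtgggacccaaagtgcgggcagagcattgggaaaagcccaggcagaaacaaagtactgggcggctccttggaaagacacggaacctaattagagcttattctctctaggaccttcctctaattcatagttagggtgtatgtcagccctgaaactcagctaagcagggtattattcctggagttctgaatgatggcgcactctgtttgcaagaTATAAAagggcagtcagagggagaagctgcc
F2, chr2:91636458-91636707, minus strand: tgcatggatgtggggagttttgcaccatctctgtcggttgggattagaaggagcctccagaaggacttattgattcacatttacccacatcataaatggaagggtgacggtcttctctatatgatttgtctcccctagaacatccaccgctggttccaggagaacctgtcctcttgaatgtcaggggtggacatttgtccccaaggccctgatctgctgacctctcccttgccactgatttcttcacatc
Itih4, chr14:30886226-30886475, plus strand: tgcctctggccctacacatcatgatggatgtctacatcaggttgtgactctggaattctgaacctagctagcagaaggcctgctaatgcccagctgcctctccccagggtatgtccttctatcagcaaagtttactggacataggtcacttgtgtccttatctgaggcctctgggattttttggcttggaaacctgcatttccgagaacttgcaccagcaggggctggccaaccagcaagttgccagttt

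Promoter entries were found for 25 of the 32 members. GTTAAT was present in 6 of the 25 (24%), against 7.49% of 27025 genes and 6.43% of 32851 promoter windows of the same length. TTGCNNAA was present in 10 of the 25 (40%), against 10.8% of genes and 9.56% of windows, and TATAAA in 6 (24%), against 8.94% and 7.59%. No match overlapped another in the printed sequences, and a match is a description of the sequence only. In Alb the HNF1 core began 32 bases before the start site, in Fga 43 and in Fgb 29. These genes were printed because they hold that core, so they are no comparison for the other printed genes. The windows of F2 and Itih4 held none of the 3 motifs, which was also so for members such as Apoa1, Serpinc1 and Tat. The printed window of Fetub held TATAAA alone, 31 bases before its start, and that of another start site of Fetub, not printed, held none.

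The arrays did not form a uniform set, which bears on every value that follows. The arrays fell into a smaller set, made of reconRAG1KO replicate 4 and reconSCID replicate 2, and a larger set of the other 5, with correlations across all probe sets of 0.922 to 0.947 between the sets, 0.972 inside the smaller and 0.976 to 0.990 inside the larger. No batch is named in the labels. Since both groups were present in each, differences are also given from a blocked fit, in which array set is a term. The sets were drawn from these same values, so the p-values and intervals of the blocked fit are a description. Differences are also given from either set by itself, where the smaller has 1 array a group and allows no test. Aire, a marker of the sorted cells, measured 10.90, 10.90, 11.09 and 11.93 in reconRAG1KO and 10.70, 11.46 and 9.73 in reconSCID. Macrophage and dendritic cell genes gave signal on the same arrays, with 15 of 15 above the median of all probe sets, so Aire does not show that the samples held epithelial cells alone. Prkdc, the gene that carries the SCID mutation, measured 7.19, 7.30, 7.34 and 7.21 in reconRAG1KO and 7.33, 7.20 and 7.66 in reconSCID, and since the mutation is a point change in the coding sequence, this level does not check the label. Exact ties are common in the deposited values: 46.2% of all probe sets and 20 of the 30 members held the same value on at least 2 arrays, mostly members of low level.

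No liver plasma protein gene passed the test between the groups, while most had a slightly lower mean in reconSCID. The mean was lower in 26 of the 30 members and higher in 4, with a median difference of -0.10, against 52.4% of genes lower and a median of -0.01 over all 19937. At an adjusted p under 0.05 the limma fit called 0 of the 30 members, at a background of 0% (0 of 34760 probe sets). At an unadjusted p under 0.05 it called 0 members in either direction, where the background was 1.19% of genes lower and 0.863% higher. With array weights 57 probe sets passed over the whole array, and 0 of them stood for a member. Among the 8 members above the median of all probe sets 6 were lower, with a median of -0.22, and among the other 22 there were 20, with a median of -0.09. The medians over all genes above and not above that line were -0.02 and 0.01.

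Single samples set the size of these medians. Without reconSCID replicate 3 the median over the 30 members was -0.06 with 21 lower, and that over the 8 was -0.13. Without reconSCID replicate 2 they were -0.18 with 29 lower, and -0.32, and without reconRAG1KO replicate 4 they were -0.08 with 21 lower, and -0.16. ReconSCID replicate 3 alone held the lowest value in 13 of the 30 members, and in 5 of the 8 of higher level. ReconRAG1KO replicate 4 alone held the highest value in 11 and reconSCID replicate 2 in 8, the same arrays that stood apart overall. In the blocked fit the median over the 30 was -0.12 and 26 were lower (54.3% of all genes were), and it was -0.14 in the larger set, with 26 lower, and -0.11 in the smaller set, with only 19 lower. For the 8 members of higher level these values were -0.25, -0.24 and -0.13.

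**Figure D1:**
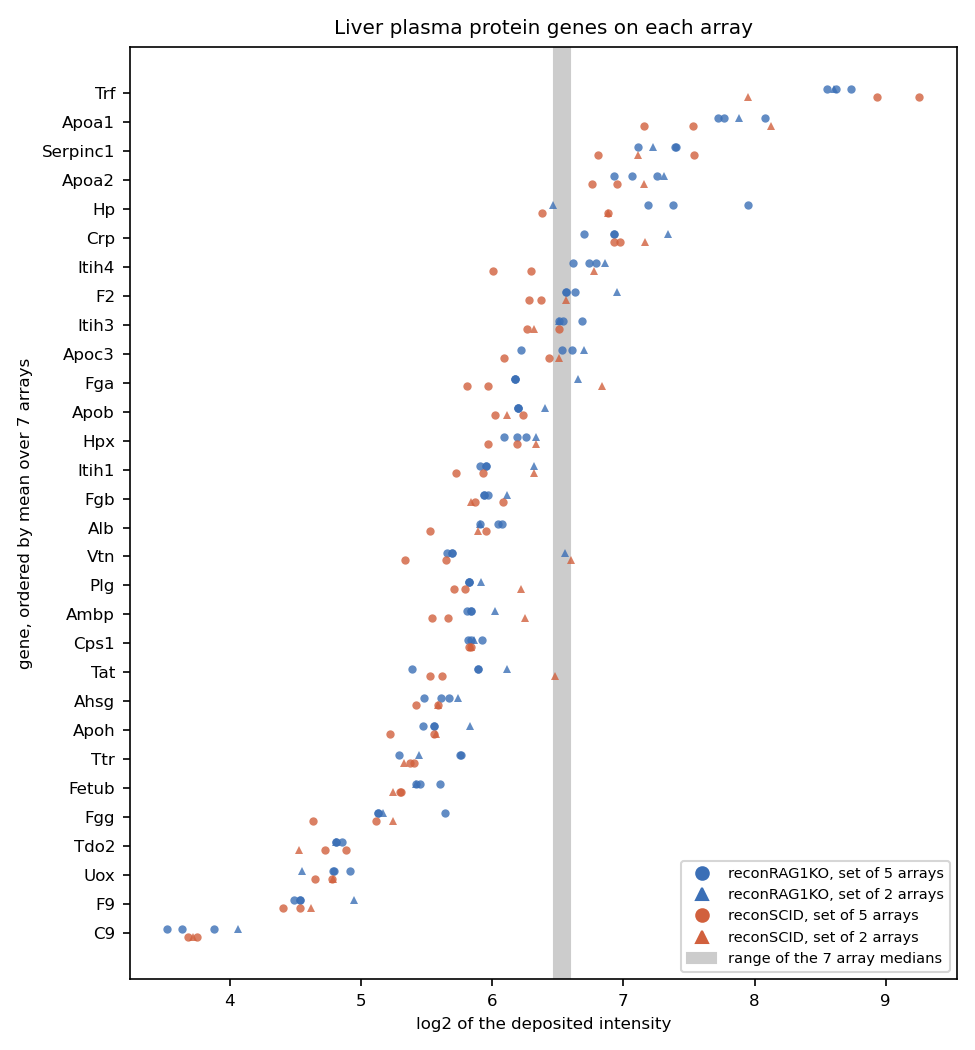
Log2 intensity of each of the 30 measured liver plasma protein genes (rows, ordered by mean) on each of the 7 arrays, with reconRAG1KO in blue and reconSCID in orange, circles for the set of 5 arrays and triangles for the set of 2. The grey band is the range of the 7 array medians (6.47 to 6.59). 8 genes have a mean above the median of all probe sets, and the points of the groups overlap in every gene but Fetub.

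In the blocked fit 3 members had an unadjusted p under 0.05, all lower, and none passed after adjustment. They were F2, Itih4 and Fetub, or 10% of the 30, where the background was 6.75% of genes lower and 5.34% higher. F2 and Itih4 were 2 of the 8 members above the median of all probe sets (25%, against 8.24% of all genes above it). Both lay close to that line, at means of 6.56 and 6.58. The largest of the members' differences in size, that of Hp, had one of the widest intervals, as the plot of differences by gene shows.

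**Figure D2:**
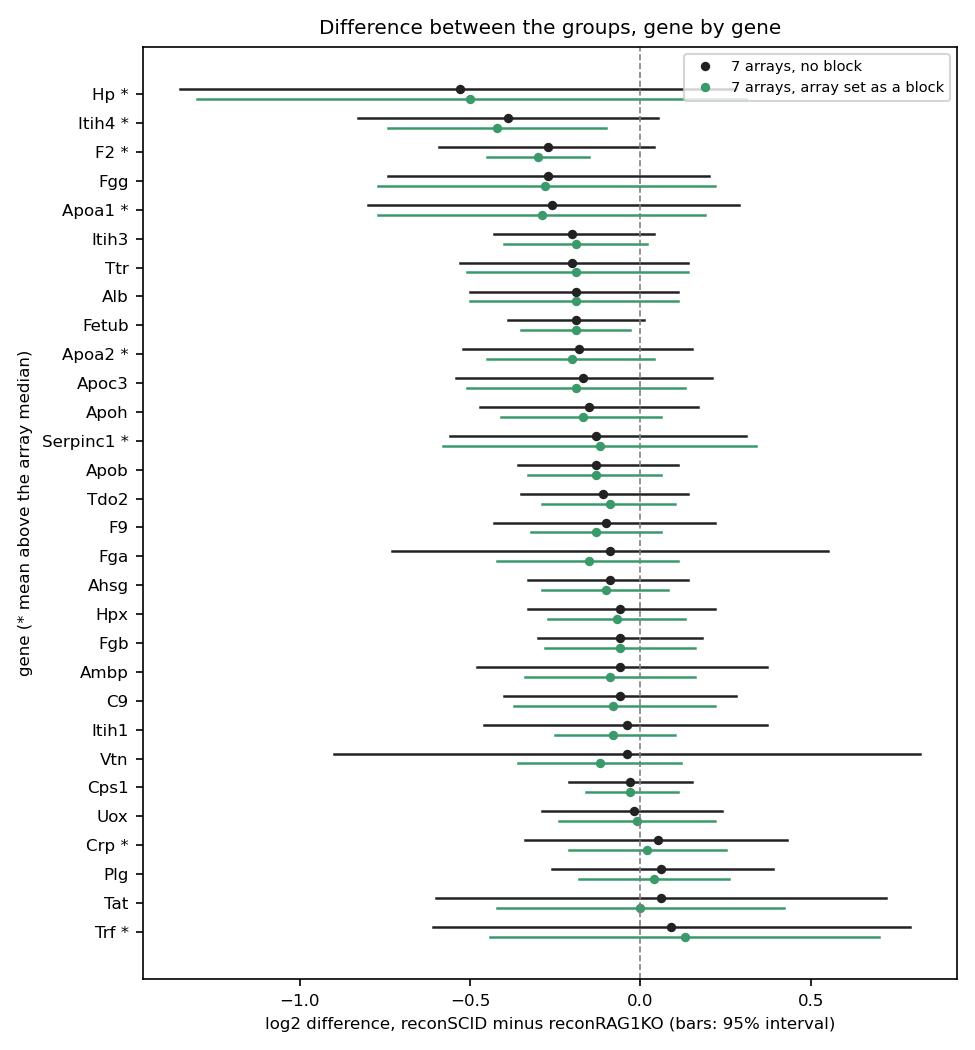
Log2 difference of each measured gene, reconSCID minus reconRAG1KO, with its 95% interval from limma, without a block (black) and from the blocked fit (green). In the fit without a block every interval includes 0, and in the blocked fit those of Itih4, F2 and Fetub lie below 0.

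The carriers and binding proteins of plasma gave no difference past the threshold. Hp encodes haptoglobin, which binds free haemoglobin and is also made by neutrophils. Hp measured 7.38, 7.95, 7.19 and 6.47 in reconRAG1KO and 6.38, 6.88 and 6.88 in reconSCID. The first 3 reconRAG1KO samples were above every reconSCID sample, and replicate 4 was below 2 of them. The difference of Hp was -0.53, with a 95% interval from -1.35 to 0.28, and it was -0.88 in the larger set and 0.42 in the smaller set. Without reconRAG1KO replicate 2, the highest, the difference of Hp was -0.30. With array weights it was -1.05, at an unadjusted limma p of 0.00286 and an adjusted p of 0.09275. The weights were 4.79, 0.12 and 0.8 in reconSCID and 2.38, 2.69, 2.13 and 0.16 in reconRAG1KO. The weighted value thus rests mostly on reconSCID replicate 1, the lowest sample for Hp, and hardly on the smaller set.

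The neutrophil list was also lower in reconSCID. Its 15 genes had a median difference of -1.01 with 14 lower. Their mean level lay between 6.54 and 8.57 in reconRAG1KO and was 6.83, 6.29 and 6.53 in reconSCID. ReconRAG1KO replicate 2 was highest for the list as for Hp. Within reconSCID, replicate 1 was highest for the list and lowest for Hp. The neutrophil median was -1.41 in the larger set and -0.10 in the smaller set. Lcn2, a granule protein of neutrophils, differed by -1.52, Stfa3, a stefin, by -0.53 and Ly6g, a surface marker of these cells, by -1.47. Saa1 and Saa2, acute-phase apolipoproteins outside the list of members, differed by -1.32 and -0.84. The part of neutrophils in the values of Hp was not tested. In bulk samples, fewer cells of a type and less RNA per cell cannot be told apart.

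Trf, transferrin, carries iron in plasma and is transcribed in several tissues besides the liver. Trf measured 8.62, 8.73, 8.55 and 8.61 in reconRAG1KO and 8.94, 7.95 and 9.26 in reconSCID. The controls lay close together (8.63 ± 0.08, SD, n = 4), and the reconSCID samples fell on both sides of them (8.72 ± 0.68, SD, n = 3). The difference of Trf was 0.09 without the block, 0.46 in the larger set and -0.66 in the smaller set. The mean level of macrophage and dendritic cell genes was 9.31, 9.21, 9.01 and 8.50 in the controls and 9.46, 8.04 and 9.91 in the reconSCID samples, with the lowest and the highest sample the same as for Trf. Of these 15 genes 10 were higher, with a median difference of 0.15, and their part in the values of Trf was not tested.

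**Figure D3:**
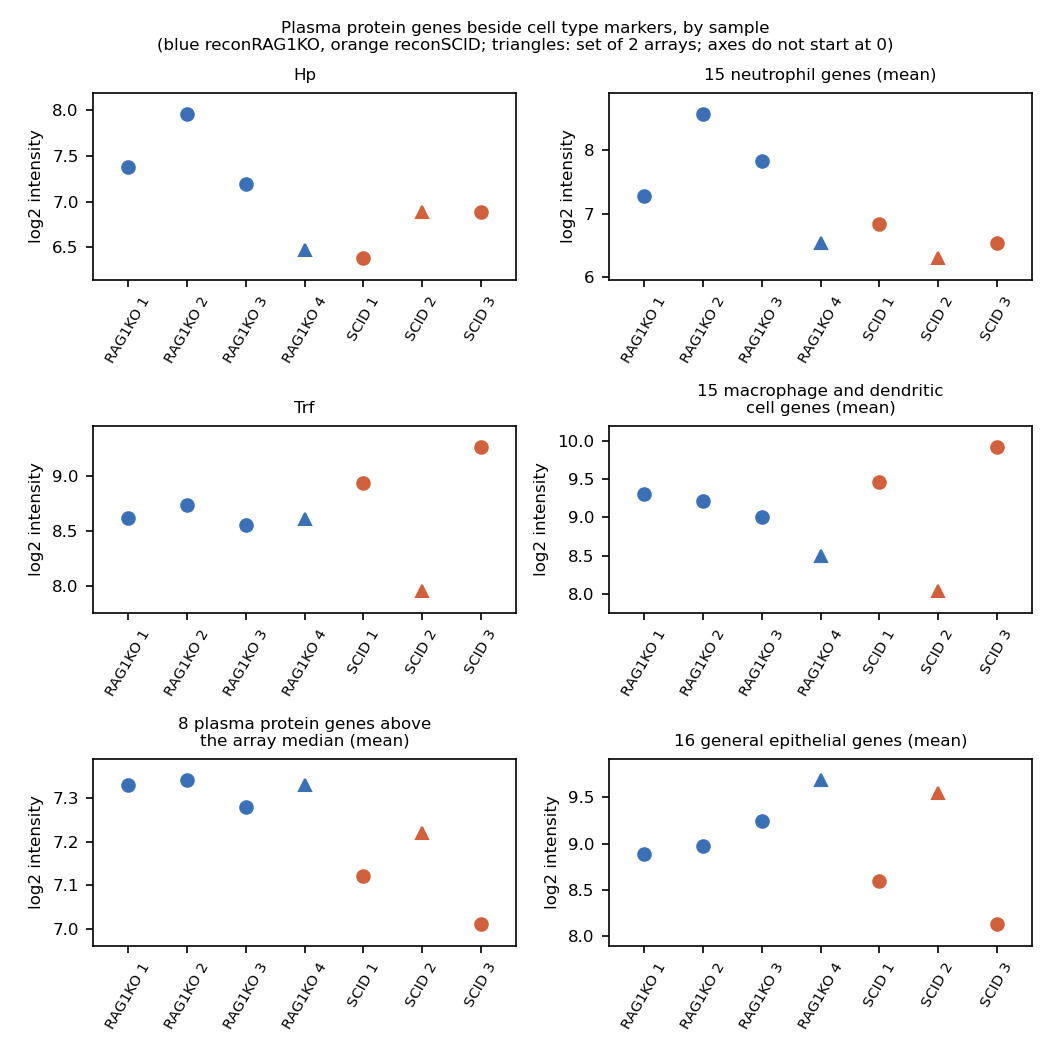
Log2 intensity by sample of Hp and Trf (left, upper panels), of the mean of 15 neutrophil and of 15 macrophage and dendritic cell genes (right, upper panels), and of the means of the 8 plasma protein genes above the array median and of 16 general epithelial genes (bottom). Blue is reconRAG1KO, orange reconSCID, and triangles are the set of 2 arrays. Hp and the neutrophil genes are both highest in reconRAG1KO replicate 2. Within reconSCID, replicate 1 is lowest for Hp and highest for the neutrophil genes. Trf and the macrophage genes are both highest in reconSCID replicate 3 and lowest in reconSCID replicate 2.

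Alb, the main protein of plasma, was not above the median of all probe sets. It measured 5.91, 6.04, 6.07 and 5.91 in reconRAG1KO and 5.95, 5.89 and 5.53 in reconSCID. The groups overlapped, and the reconSCID mean rested on replicate 3: the difference of Alb was -0.19, and -0.06 without that sample. Ttr, transthyretin, which carries thyroid hormone and retinol-binding protein, measured 5.76, 5.29, 5.76 and 5.44 in reconRAG1KO and 5.40, 5.33 and 5.37 in reconSCID. The reconSCID values of Ttr were close together and inside the range of the controls. Fetub and Ahsg are the neighbouring fetuin genes of chromosome 16, whose products inhibit proteases and mineral deposition. Fetub was the 1 member whose groups did not overlap, or 3.33% of 30, against a background of 1.54% of genes apart in that direction and 1.23% in the other. Fetub measured 5.60, 5.45, 5.42 and 5.42 in reconRAG1KO and 5.31, 5.25 and 5.29 in reconSCID, a difference of -0.19 ± 0.09 (SE) at an unadjusted limma p of 0.06095 and an adjusted p of 1. The gap between the groups of Fetub was smaller than the range of its controls, and the whole range of the gene stayed under the array medians. Ahsg differed by -0.09, the haem carrier Hpx by -0.06 and Ambp, the precursor of alpha-1-microglobulin and bikunin, by -0.06.

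Of the members named as apolipoproteins, 5 of 5 had a lower mean in reconSCID and none passed. Apoa1, the main protein of high-density lipoprotein, measured 7.72, 7.77, 8.08 and 7.88 in reconRAG1KO and 7.53, 8.13 and 7.16 in reconSCID. In the larger set both reconSCID samples were below all controls for Apoa1, while reconSCID replicate 2 was the highest of all. The difference of Apoa1 was -0.26, with an interval from -0.80 to 0.29, and it was -0.51 in the larger set and 0.24 in the smaller set. Apoa2, the other major protein of that particle, measured 7.26, 7.07, 6.93 and 7.31 in reconRAG1KO and 6.95, 7.15 and 6.76 in reconSCID, a difference of -0.18, or -0.085 without reconSCID replicate 3. Apob, the structural protein of the larger lipoproteins, was tied at 6.20 in 3 controls, with 6.40 in the fourth and 6.23, 6.11 and 6.02 in reconSCID. Apob differed by -0.13, Apoc3, an inhibitor of lipoprotein lipase, by -0.17 and Apoh, which binds phospholipid, by -0.15. Without reconSCID replicate 3 the differences of Apoa1 and Apoh were -0.035 and -0.039, and without reconSCID replicate 1 that of Apoc3 was -0.04.

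Apoa4, the gut apolipoprotein gene next to Apoa1 and Apoc3 on chromosome 9, was no member. It measured 8.59, 8.34, 8.58 and 8.92 in reconRAG1KO and 8.09, 8.38 and 7.65 in reconSCID, a difference of -0.57 at an unadjusted limma p of 0.02925 and an adjusted p of 1. The reconSCID samples stood in the same order for Apoa4 and Apoa1, with replicate 3 lowest and replicate 2 highest, and the controls did not. Of the 11 other apolipoprotein and lipid-transport genes measured, 6 were lower and 5 higher, with a median of -0.08. Apoe, which macrophages make in quantity, differed by 0.31.

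Coagulation factors and their regulators included the member with the smallest p in the blocked fit. F2, prothrombin, measured 6.63, 6.56, 6.56 and 6.95 in reconRAG1KO and 6.37, 6.56 and 6.28 in reconSCID. Within each array set every reconSCID value of F2 was below every control. The difference of F2 was -0.27 ± 0.13 (SE) without a block, and -0.30 ± 0.06 (SE) in the blocked fit, at an unadjusted limma p of 0.002893 and an adjusted p of 0.2466. Leaving out each sample in turn, the difference of F2 lay between -0.34 and -0.26 in the blocked fit, and was -0.18 without a block when reconRAG1KO replicate 4 was left out. Serpinc1, antithrombin, which inhibits thrombin, measured 7.40, 7.11, 7.39 and 7.23 in reconRAG1KO and 7.54, 7.11 and 6.81 in reconSCID. The reconSCID values of Serpinc1 enclosed those of the controls, with a difference of -0.13 and an interval from -0.56 to 0.31.

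The fibrinogen chains Fga, Fgb and Fgg, which are encoded side by side on chromosome 3 and assemble into the clot protein, were all below the array medians in most samples. Fgg measured 5.13, 5.64, 5.13 and 5.17 in reconRAG1KO and 5.12, 5.24 and 4.64 in reconSCID. Apart from a high control, replicate 2, and a low reconSCID sample, replicate 3, the values of Fgg lay between 5.12 and 5.24. Its difference was -0.27, with an interval from -0.74 to 0.20, or -0.087 without that reconSCID sample. The differences of Fga and Fgb were -0.09 and -0.06, and a second probe set of Fga gave 0.04. Fga was higher by 0.68 in the 2 arrays than in the 5, and by 0.02 and 0.08 for Fgb and Fgg. F9, the factor missing in haemophilia B, differed by -0.10 and Plg, plasminogen, by 0.06.

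The inter-alpha-trypsin inhibitor heavy chains on the list lie together on chromosome 14, and the largest difference among them was that of Itih4. Itih4 measured 6.74, 6.79, 6.62 and 6.86 in reconRAG1KO and 6.30, 6.78 and 6.00 in reconSCID. Replicates 1 and 3 of reconSCID lay below all controls and replicate 2 lay among them. The difference of Itih4 was -0.39 ± 0.18 (SE) without a block and -0.42 ± 0.13 (SE) in the blocked fit, at an unadjusted limma p of 0.01753 and an adjusted p of 0.3139. It was -0.57 in the larger set and -0.08 in the smaller set. Without reconSCID replicate 3 the difference of Itih4 was -0.21, or -0.28 in the blocked fit. Itih3 measured 6.69, 6.54, 6.51 and 6.51 in reconRAG1KO and 6.51, 6.32 and 6.26 in reconSCID, so the highest reconSCID value equalled the lowest controls. Itih3 differed by -0.20 and Itih1 by -0.04.

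Pentraxin and complement members showed no common direction. Crp, a pentraxin that binds bacterial surfaces and a long-studied self antigen of the thymic medulla, measured 6.93, 6.70, 6.93 and 7.34 in reconRAG1KO and 6.97, 7.17 and 6.93 in reconSCID. The highest Crp values of each group were on the arrays that stood apart, and the difference was 0.05, with an interval from -0.34 to 0.43. C9, of the membrane attack complex, differed by -0.06 at a mean level of 3.75. Vtn, vitronectin, an adhesion protein of plasma and matrix, differed by -0.04 and split instead by array set: it measured 6.55 and 6.60 in the 2 arrays and 5.34 to 5.69 in the other 5. Endothelial and fibroblast genes were higher in the same 2 arrays by a median of 0.99 over 12 genes, and their part in the values of Vtn was not tested.

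The liver enzymes on the list all lay below the median of all probe sets, and none passed. Tdo2, which opens the tryptophan ring, differed by -0.11, or -0.013 without reconSCID replicate 2, Cps1, of the urea cycle, by -0.03, and Uox, urate oxidase, by -0.02. Tat, tyrosine aminotransferase, differed by 0.06, by -0.15 in the larger set and by 0.36 in the smaller set. At these levels a small true difference may not be measurable.

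**Figure D4:**
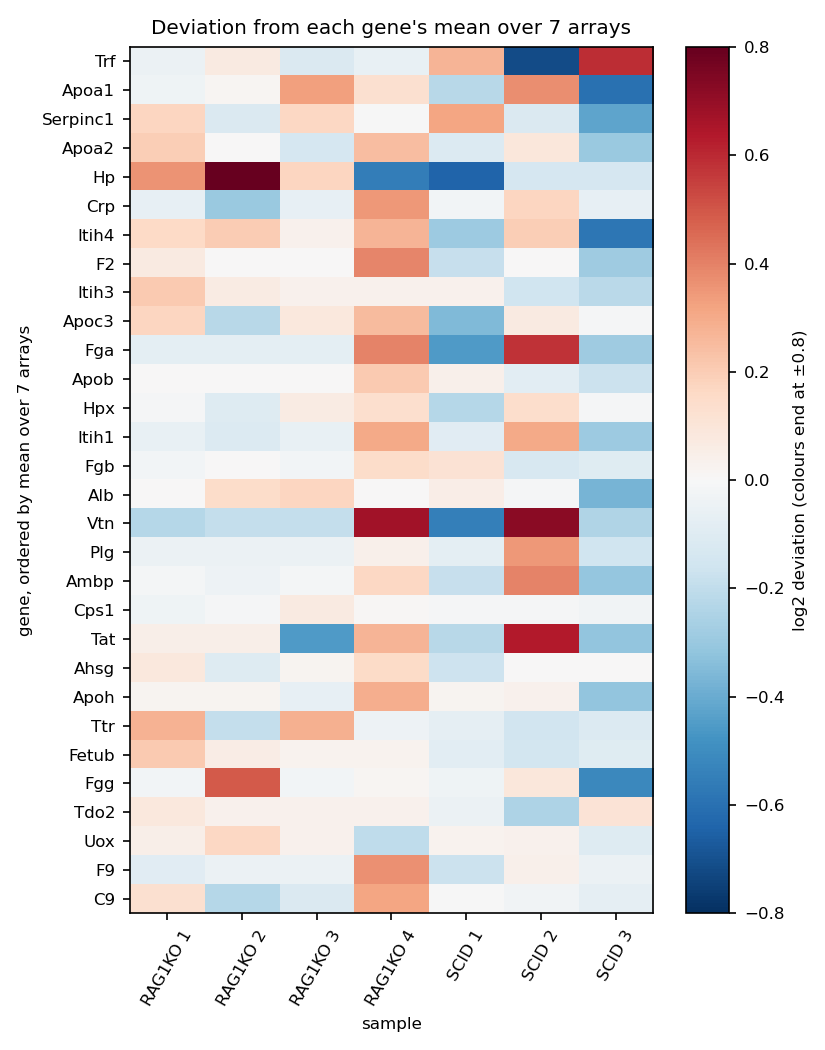
Deviation of each log2 value from the mean of that gene over the 7 arrays, for the 30 measured genes (rows, ordered by mean) and 7 samples (columns), blue below and red above the mean, with colours ending at ±0.8. The column of reconSCID replicate 3 is mostly blue (median deviation -0.17) and that of reconRAG1KO replicate 4 mostly red (median deviation 0.15), and Hp and Trf follow patterns of their own.

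The members were higher in the 2 arrays than in the 5 in 21 of 30 cases, with a median of 0.20. Among the 22 members not above the median of all probe sets this was so in 16 (72.7%), with a median of 0.15, against 86.7% and 0.22 over all genes not above it. Between the sets Vtn, Fga and Tat were higher in the 2 arrays by 0.97, 0.68 and 0.63, and Trf and Hp lower, at -0.54 and -0.48.

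Other lists of liver and plasma genes had medians between -0.08 and 0.08, beside -0.10 for the members, and the differences between lists were not tested. Of 32 other plasma protein genes measured 18 were lower and 14 higher, at a median of 0.00, and none passed. Cp, the copper carrier ceruloplasmin, was higher in all 3 reconSCID samples than in any control, at 7.63, 8.29 and 8.10 against 7.29, 7.28, 7.23 and 7.56. The difference of Cp was 0.67 at an unadjusted limma p of 0.006996 and an adjusted p of 1. Saa1 was lower in all 3 than in any control, narrowly (at most 5.856 against at least 5.868), with a difference of -1.32 at an unadjusted limma p of 0.00995. Thus 1 of the 32 was apart in each direction, against 1.23% of all genes higher and 1.54% lower. For other coagulation genes the median was -0.01 and 5 of 10 were lower, F13b at -0.18. For complement genes it was 0.08 and 4 of 11 were lower, C2 at -0.16 and C4b at 0.30. Of 21 other liver enzyme genes 15 were lower, with a median of -0.07, among them Fah, of tyrosine breakdown, at -0.36 and Fbp1, of gluconeogenesis, at -0.32. Of the transcription factors of the hepatocyte network 10 of 15 were lower, at a median of -0.05, Cebpb at -0.11 and Hnf4g at -0.23. At an adjusted p under 0.05 limma called 0 genes of these lists.

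Epithelial genes were also lower in most cases. The 16 general epithelial genes measured were lower in 16 cases with a median of -0.44, and medullary genes in 14 of 16 with a median of -0.45. Aire itself differed by -0.57, or -0.12 without reconSCID replicate 3. In the blocked fit Aire differed by -0.67, and by -0.93 to -0.34 without single samples. At an unadjusted limma p under 0.05 that fit had 10 general epithelial genes (62.5%) and 8 medullary genes (50%) lower. The background was 8.24% of all genes above the median of all probe sets, and none passed after adjustment. The mean level of the general epithelial genes was 8.89, 8.97, 9.24 and 9.68 in reconRAG1KO and 8.60, 9.54 and 8.13 in reconSCID. It was lowest in reconSCID replicate 3, as for 5 of the 8 plasma protein genes of higher level. The mean of those 8 was 7.33, 7.34, 7.28 and 7.33 in reconRAG1KO and 7.12, 7.22 and 7.01 in reconSCID. Across the controls the mean of the 8, which include Hp and Trf, did not rise with the epithelial mean. Within reconSCID both means were lowest in replicate 3 and highest in replicate 2. B cell genes were higher in 12 of 13 cases with a median of 0.81, and their mean level was 6.93 to 7.09 in reconRAG1KO and 7.10 to 8.53 in reconSCID, highest in replicate 3. In the smaller set the medians of general epithelial, medullary, B cell and plasma protein genes were -0.14, -0.20, -0.01 and -0.11. The part of the epithelial and B cell content of the samples in the values of the plasma protein genes was not tested.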

How the data were processed

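Biotinylated cRNA from total RNA (6 µg) was hybridised to Affymetrix arrays, per the labels' protocols. The authors deposited a linear intensity for each probe set, already summarised and brought to similar medians (88.6 to 96.3); the sources used here do not give the method. Log2 was taken with no pseudocount, since 0 of the 34760 probe sets' values lay below 1. The platform annotation gave 1 symbol to 21640 probe sets, several to 1321 and none to 11799. The groups were compared with lmFit and eBayes of limma 3.58.1 (R 4.3.3), two-sided, over all probe sets, with Benjamini-Hochberg adjustment and a threshold of 0.05. The p-values measure only the spread between these samples, and the number of arrays limits the precision. The fit was checked on simulated data. Promoter sequences are those of RefSeq, assembly GRCm38.p6.

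The members, gene lists and tests were chosen with earlier results of these data known. Values in every sample are given for members above the median of all probe sets and for the 6 others with the smallest unadjusted p. In other lists up to 3 genes with the smallest p are named, and in some the gene most changed in a direction. The genes named are thus not always the most changed of their list. The array sets are the 2 clusters of the array correlations (average linkage). Alternatives were other scalings, a filter, a pseudocount of 16, array weights, blocks and leaving out samples.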

Additional observations from a re-analysis of the deposited data

Results flagged for a closer look

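In 10 of the 30 members 1 reconRAG1KO sample stood far above the other 3 (33.3%) by Dixon's criterion. Chance meets it in about 1 in 20 groups of independent values, but over all genes on these arrays 31.1% met it in that group, 17.7% with a high sample. Of the 22 members not above the median of all probe sets 10 had such a high sample (45.5%), against 23.5% of all genes not above it, and in 8 (36.4%, against 19.9%) that sample was replicate 4. The 8 were Apob at 6.402 against 6.196, Fga at 6.654 against 6.176, Fgb at 6.112 against 5.941 to 5.969, Ambp at 6.02 against 5.811 to 5.838, Plg at 5.913 against 5.822, Itih1 at 6.316 against 5.907 to 5.954, Vtn at 6.555 against 5.656 to 5.694 and F9 at 4.943 against 4.485 to 4.531. ReconRAG1KO replicate 4 is 1 of the 2 arrays that stood apart over all probe sets. For the remaining members, Fgg was high in replicate 2 at 5.639 (against 5.128 to 5.169) and Tdo2 in replicate 1 at 4.856 (against 4.807). Where the other 3 values are tied, even a small gap meets the criterion.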

How the results depend on the processing

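Over all alternatives 0 of 700 member differences passed the threshold, and 13 of the 30 members kept a lower mean in each alternative that gave them a value, the smaller array set by itself included. That set, an alternative chosen after seeing the data, has 1 array a group and no test, and 19 of 30 members were lower in it. The median over the 30 members ran from -0.19 (filter on low values) to -0.07 (pseudocount of 16), and from -0.18 to -0.06 without single samples. The filter left 10 members, 8 of them lower, and of the 10 members whose 7 deposited values all differ, an alternative chosen after seeing the data, 8 were lower. These counts fall because fewer members are counted. The median over the 8 members of higher level ran from -0.25 to -0.16, was -0.13 in the smaller set, and ran from -0.32 to -0.13 without single samples, and to -0.12 without reconSCID replicate 3 in the blocked fit. Over all probe sets 0 passed in the fit, 57 with array weights (47 higher, 10 lower), and 1159 had an unadjusted p under 0.05 (765 higher, 394 lower).

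The sign turned in the following cases, and the cause was not tested. In the smaller array set by itself the difference was -0.66 for Trf, 0.42 for Hp, 0.24 for Apoa1, 0.24 for Uox, 0.23 for Ambp, 0.18 for Fga, -0.17 for Crp, 0.074 for Fgg, 0.047 for Vtn, 0.003 for Hpx, 0.0042 for Itih1, -0.0085 for Prkdc, -0.0048 for Apoe and 0.042 for Stfa3. In the tested alternatives the values were, with array weights, Fgb 0.093, Tat -0.12, Plg -0.035, C9 0.056, Serpinc1 0.14 and Hnf4g 0.032, in the larger array set alone Fgb 0.026, Tat -0.15, Plg -0.071 and C9 0.036, and with the replicate number as a block Fga 0.027, Itih1 0.053, Vtn 0.18, C9 0.037 and F9 0.0033. Leaving out single samples, in either fit, gave differences of -0.41 to 0.11 for Fga, -0.16 to 0.026 for Fgb, -0.27 to 0.082 for Ambp, -0.14 to 0.043 for Hpx, -0.18 to 0.47 for Trf, -0.25 to 0.23 for Tat, -0.094 to 0.16 for Plg, -0.21 to 0.091 for Itih1, -0.41 to 0.22 for Vtn, -0.045 to 0.17 for Crp, -0.14 to 0.037 for C9, -0.12 to 0.064 for Uox, -0.34 to 0.1 for Serpinc1 and -0.19 to 0.0033 for F9. Among members whose sign held there, the ranges were -0.52 to -0.035 for Apoa1, -0.28 to -0.085 for Apoa2, -0.29 to -0.04 for Apoc3, -0.29 to -0.039 for Apoh, -0.29 to -0.039 for Alb, -0.42 to -0.08 for Fgg, -0.19 to -0.013 for Tdo2, -0.88 to -0.21 for Hp and -0.6 to -0.21 for Itih4.

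Same-numbered samples correlated in their deviations at 0.47, -0.51 and 0.31. Pairs from the same array set correlated at 0.31 to 0.71 and pairs across the sets at -0.63 to -0.44. The values follow the array sets, so they cannot decide whether the numbers pair the samples. With that replicate block 0 probe sets passed, 21 members were lower and the medians were -0.08 and -0.16.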
